A study of Homo sapiens with 5 samples.

Results

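The 10 genes described here belong to the LIN28 and let-7 system and were read in RNA sequencing of METAP1 knockout HAP1 cells and wild-type HAP1 cells. They were the RNA-binding paralogues LIN28A and LIN28B, the let-7 decay factors ZCCHC11 (also called TUT4) and DIS3L2, the microRNA-cutting enzymes DROSHA and DICER1, the ubiquitin ligase TRIM71, and the mRNA-binding proteins IGF2BP1, IGF2BP2 and IGF2BP3. The genes were taken by name, all 10 were present among the 10626 genes of the deposited table, and all 10 passed the filter on low counts. The group was chosen by the biology of these genes together with measured values, their read counts in knockout against wild-type libraries, which were known when it was drawn up, so the knockout values of these 10 genes are given as a description, with no test.

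HAP1 cells carry close to a single set of human chromosomes and derive from a chronic myeloid leukaemia line. The METAP1 knockout is a single CRISPR/Cas9-edited HAP1 line with a frameshifting insertion in a coding exon. The titles and genotype labels name METAP1, while the growth protocol writes METAP1D for the exon beside a METAP1 transcript. METAP1 encodes methionine aminopeptidase 1, which clips the initiator methionine off newly made proteins. The wild-type group is unedited HAP1 control cells from the same supplier, grown in the same medium with foetal bovine serum. Total RNA was depleted of ribosomal RNA and sequenced from 2 knockout and 3 wild-type libraries. Effects of the METAP1 edit and of other differences between 1 edited line and the control line cannot be told apart. The labels call the libraries biological replicates of a line, and p-values measure the spread between such libraries only. In bulk RNA, a change in the number of cells that express a gene and a change in RNA per cell cannot be told apart.

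The let-7 microRNAs are small RNAs that pair with the 3′ untranslated regions of mRNAs and lower their translation and stability. DROSHA cuts the let-7 hairpin from its primary transcript and DICER1 cuts the hairpin to the mature RNA. LIN28A and LIN28B bind let-7 precursors and block this maturation, LIN28A by recruiting the uridylyltransferase ZCCHC11, after which the exonuclease DIS3L2 degrades the tailed precursor. LIN28A, LIN28B, TRIM71 and the IGF2BP genes are themselves known let-7 targets, and LIN28A is known from embryonic stem cells, where its level falls on differentiation.

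The mature let-7 family is shown first because its seed, bases 2 to 8 counted from the 5′ end and printed in capitals, sets which mRNAs it can pair with. All 9 mature family members of the RefSeq table (GRCh38.p14) carried the same seed, GAGGUAG, and 5 of them were as follows.
hsa-let-7a-5p: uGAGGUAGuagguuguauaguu
hsa-let-7d-5p: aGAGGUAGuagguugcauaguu
hsa-let-7e-5p: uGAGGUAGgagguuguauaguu
hsa-let-7g-5p: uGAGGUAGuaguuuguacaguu
hsa-miR-98-5p: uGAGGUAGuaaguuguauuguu
The genes of let-7d, let-7e, let-7g and miR-98 lie on chromosomes 9, 19, 3 and X, and let-7a is made from 3 loci on chromosomes 9, 11 and 22. The microRNAs themselves were not measured: the deposited table held 0 genes of the microRNA class.

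LIN28 proteins are known to contact a GGAG motif between the arms of let-7 hairpins. The letters GGAG stood between the arms in 8 of the 11 hairpins for which the RefSeq table gave both arms, and were not found there in let-7a-3, let-7b and miR-98. The hairpins of let-7g (chromosome 3, minus strand) and let-7a-3 (chromosome 22, plus strand) are printed as an example with the motif, in capitals, and one without it.
let-7g: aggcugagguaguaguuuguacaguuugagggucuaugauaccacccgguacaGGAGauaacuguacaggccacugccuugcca
let-7a-3: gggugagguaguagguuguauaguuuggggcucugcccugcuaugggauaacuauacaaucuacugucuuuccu

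The DNA letters CTACCTCA, the reverse complement of the seed followed by A, were found in the annotated 3′ untranslated region of 6 of the 10 genes: LIN28A, LIN28B, TRIM71, IGF2BP1, IGF2BP2 and IGF2BP3. The transcript searched was the one with the longest coding sequence in GENCODE 29 (GRCh38), on the sense strand only. The first match of each gene is printed with its match in capitals and the bases before it in lower case.
LIN28A: cacagcctattgaaCTACCTCA
LIN28B: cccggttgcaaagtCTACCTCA
TRIM71: acattgcttaagtcCTACCTCA
IGF2BP1: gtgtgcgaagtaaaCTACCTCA
IGF2BP2: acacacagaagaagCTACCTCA
IGF2BP3: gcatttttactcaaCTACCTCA
Counted from the first base after the stop codon, these matches begin at base 905 of 3264 in LIN28A, 44 of 1696 in LIN28B, 172 of 6015 in TRIM71, 1632 of 6206 in IGF2BP1, 1304 of 1556 in IGF2BP2 and 560 of 2153 in IGF2BP3. TRIM71 held 4 such matches and IGF2BP1 held 3. The last TRIM71 matches, at bases 4009 and 4032, lie close together.
TRIM71 at base 4009: cttttgctgagtttCTACCTCA
TRIM71 at base 4032: ttgtggcaagtcatCTACCTCA
A second LIN28B transcript with a longer 3′ untranslated region of 4549 bases held 2 matches. None of DIS3L2, ZCCHC11, DICER1 and DROSHA held CTACCTCA or the shorter CTACCTC in the 3′ untranslated region of any complete coding transcript. Coding sequences were not searched. CTACCTCA was present in 3.84% of the 10351 genes searched that were tested, and CTACCTC, which includes those genes, in 10.0%. A match describes these letters and does not show that let-7 binds there.

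The libraries held 12570051 and 13061232 counted reads in knockout cells, against 13111303, 16519292 and 14722649 reads in wild-type cells. METAP1 itself had 611 and 748 normalized counts in knockout cells, against 1868, 1932 and 1944 in wild-type cells, a log2 fold change of -1.49 (SE 0.11). A normalized count is the read count scaled to the libraries' common size. Of 6 blood-cell markers listed, KIT alone was measured here, at 387 and 364 normalized counts in knockout cells against 258, 255 and 253 in wild-type cells, higher by 0.56 on the log2 scale (edgeR adjusted p = 0.0103), while of 6 pluripotency markers POU5F1, SOX2 and DPPA4 were measured; PTPRC, CD34, SPI1, GATA1, CD33, NANOG, L1TD1 and TDGF1 were not analysed here. Among all 10620 genes tested, 29.7% were called changed, 14.9% with higher and 14.8% with lower values in knockout cells; a call is an adjusted p under 0.05 from edgeR's quasi-likelihood method with Benjamini-Hochberg adjustment over all these genes. Long genes were shifted upwards in knockout cells, with a median log2 fold change of 0.21 in the longest 10% of genes and -0.15 in the shortest 10%, and the part of this shift in the results below was not tested beyond a fit with the trend removed.

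LIN28A (ENSG00000131914, chromosome 1, 26410778 to 26429722, plus strand, GRCh38) had 4340 and 4181 normalized counts in knockout cells, against 91.4, 121 and 123 in wild-type cells. Both knockout libraries stood far above all 3 wild-type libraries, and the lower knockout value was 34.0 times the highest wild-type value. These values rest on 3900 and 3952 reads in knockout cells and on 85, 143 and 128 reads in wild-type cells. The log2 fold change was 5.25 (SE 0.14), a 37.9-fold difference and the highest of all 10620 genes. The log2 fold change in the authors' deposited table was 4.99.

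In reads per kilobase of gene length, scaled to library size (RPKM), LIN28A averaged 87.0 ± 2.30 in knockout cells (SD, n = 2) and 2.28 ± 0.36 in wild-type cells (SD, n = 3). At that level it exceeded 95.2% of the tested genes in knockout cells and 5.41% of them in wild-type cells. By RPKM it was the second highest of the 10 genes in knockout cells, after IGF2BP1, and the lowest of the 10 in wild-type cells. The place after IGF2BP1 depends on the gene length used for IGF2BP1, which is described with that gene below.

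LIN28B, the paralogue (ENSG00000187772, chromosome 6, 104936616 to 105083332, plus strand), had 2587 and 2202 normalized counts in knockout cells, against 1746, 2101 and 2224 in wild-type cells. The groups overlapped, since the lower knockout library lay below the highest wild-type library. The log2 fold change was 0.24 (SE 0.13).

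**Figure D1:**
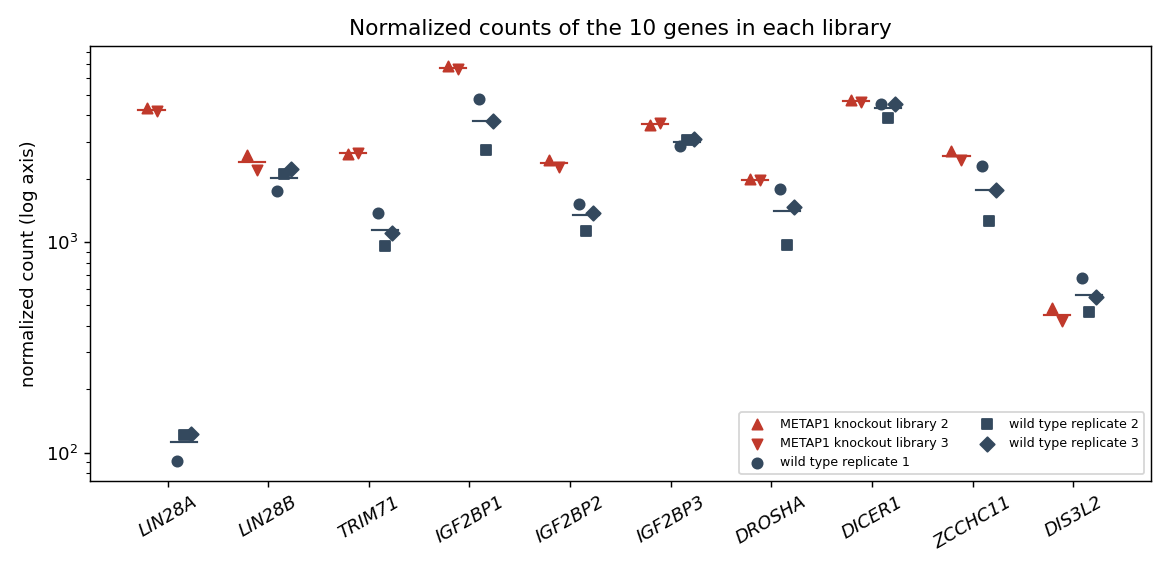
Normalized counts of the 10 genes on a log axis, one point per library, with METAP1 knockout to the left of wild type and a bar at each group mean. For LIN28A the knockout points lie at 4340 and 4181 and the wild-type points at 91.4 to 123, while for LIN28B and DIS3L2 the groups overlap.

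The balance between the paralogues differed between the lines. LIN28A made up 72.5% and 74.9% of the summed LIN28A and LIN28B RPKM in knockout libraries, against 7.61%, 8.28% and 8.01% in wild-type libraries. LIN28A exceeded LIN28B 2.64-fold and 2.99-fold in the knockout libraries, whereas in the wild-type libraries LIN28B exceeded LIN28A 12.1-fold, 11.1-fold and 11.5-fold. The summed RPKM of the pair was 118 ± 5.84 in knockout cells (SD, n = 2) and 28.5 ± 3.58 in wild-type cells (SD, n = 3). LIN28B was thus the main paralogue in wild-type cells and LIN28A in knockout cells, with LIN28B at 28.6 to 33.6 RPKM in knockout cells and 22.7 to 28.9 RPKM in wild-type cells.

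**Figure D2:**
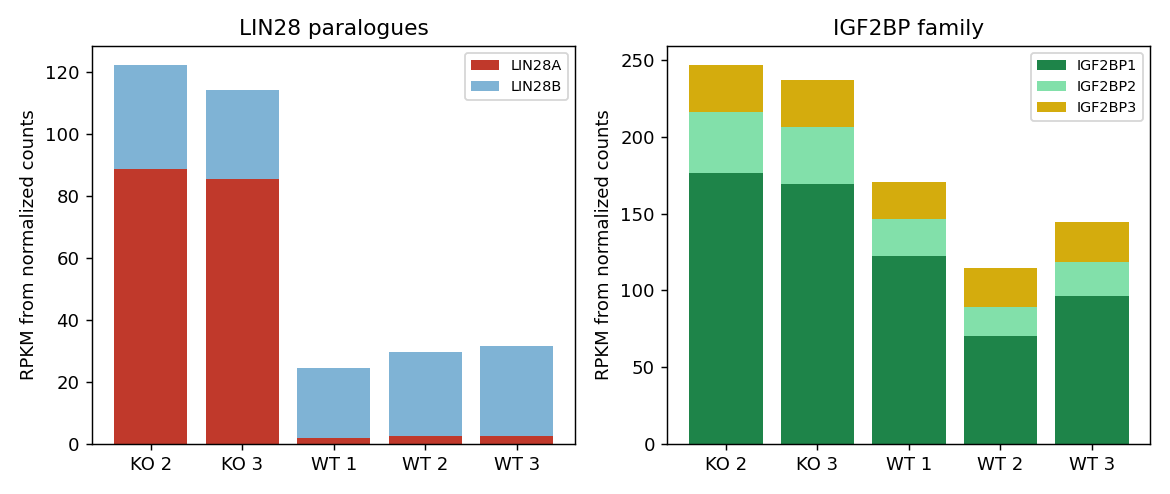
RPKM of the LIN28 paralogues (left panel) and of the IGF2BP family (right panel) in each library, as stacked bars with the knockout libraries (KO) left of the wild-type libraries (WT). LIN28A makes up 72.5% and 74.9% of the LIN28 bars in knockout libraries and 7.61% to 8.28% in wild-type libraries. With the gene lengths used, IGF2BP1 is the largest part of its family in every library.

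ZCCHC11 (ENSG00000134744, chromosome 1, 52408282 to 52553487, minus strand), which adds the uridine tail, had 2698 and 2459 normalized counts in knockout cells, against 2300, 1254 and 1771 in wild-type cells. Its lower knockout library lay just above wild-type replicate 1, and wild-type replicates 1 and 2 lay far apart. The log2 fold change was 0.54 (SE 0.22). DIS3L2 (ENSG00000144535, chromosome 2, 231961245 to 232344350, plus strand), which degrades the tailed precursor, had 484 and 420.0 normalized counts in knockout cells, against 675, 465 and 549 in wild-type cells. The groups overlapped, and DIS3L2 was the only one of the 10 genes with a negative log2 fold change, of -0.32 (SE 0.17).

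DROSHA (ENSG00000113360, chromosome 5, 31400497 to 31532196, minus strand), the nuclear enzyme of the pathway, had 1985 and 1973 normalized counts in knockout cells, against 1785, 968 and 1471 in wild-type cells. The knockout libraries were close together and above all wild-type libraries, which spread 1.84-fold. The log2 fold change was 0.49 (SE 0.22). DICER1 (ENSG00000100697, chromosome 14, 95086228 to 95158010, minus strand), the cytoplasmic enzyme, had 4721 and 4629 normalized counts in knockout cells, against 4555, 3896 and 4549 in wild-type cells. The groups were separated by a small margin, with a log2 fold change of 0.11 (SE 0.10) that became -0.14 once the trend with gene length was removed. DICER1 exceeded DROSHA in RPKM in every library, 1.49-fold and 1.47-fold in knockout libraries and 1.60-fold, 2.53-fold and 1.94-fold in wild-type libraries.

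TRIM71 (ENSG00000206557, chromosome 3, 32818018 to 32897826, plus strand), the human counterpart of worm LIN-41 and a known let-7 target, had 2634 and 2655 normalized counts in knockout cells, against 1373, 959 and 1101 in wild-type cells. Both knockout libraries lay above every wild-type library, the lower by 1.92-fold over the highest wild-type value. The log2 fold change was 1.21 (SE 0.14), a 2.31-fold difference that ranked 200 from the top among the 10620 genes. A log2 fold change of 1 or more was found for 2.95% of all tested genes.

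The IGF2BP proteins bind and stabilise mRNAs such as those of MYC and ACTB. IGF2BP1 (ENSG00000159217, chromosome 17, 48997412 to 49055650, plus strand) had 6899 and 6626 normalized counts in knockout cells, against 4775, 2754 and 3756 in wild-type cells. The knockout libraries were above all 3 wild-type libraries, which spread 1.73-fold. Its log2 fold change was 0.85 (SE 0.20). IGF2BP2 (ENSG00000073792, chromosome 3, 185643739 to 185825056, minus strand) had 2468 and 2265 normalized counts in knockout cells, against 1510, 1132 and 1374 in wild-type cells. Here too both knockout libraries were higher, with a log2 fold change of 0.82 (SE 0.13). IGF2BP3 (ENSG00000136231, chromosome 7, 23310209 to 23470467, minus strand) had 3590 and 3665 normalized counts in knockout cells, against 2856, 3059 and 3097 in wild-type cells. Its groups were separated by a smaller distance, with a log2 fold change of 0.27 (SE 0.09) that became 0.11 with the length trend removed.

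By RPKM, IGF2BP1 was the highest of the 10 genes in both lines, at 177 and 170 in knockout libraries and 122, 70.5 and 96.1 in wild-type libraries. The gene length used for IGF2BP1, 2792 bases, is shorter than its 3′ untranslated region of 6206 bases searched above. The RPKM, rank and family share of IGF2BP1 and the summed family RPKM rest on that length and may be overstated. With the lengths as given, the shares were as follows. IGF2BP1 held 71.4% of the family's summed RPKM in each knockout library, against 71.5%, 61.4% and 66.4% in wild-type libraries, so the shares overlapped. The share of IGF2BP3 was 12.3% and 13.1% in knockout libraries and 14.2%, 22.6% and 18.2% in wild-type libraries. The summed RPKM of the 3 genes was 242 ± 6.82 in knockout cells (SD, n = 2) and 144 ± 28.1 in wild-type cells (SD, n = 3).

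**Figure D3:**
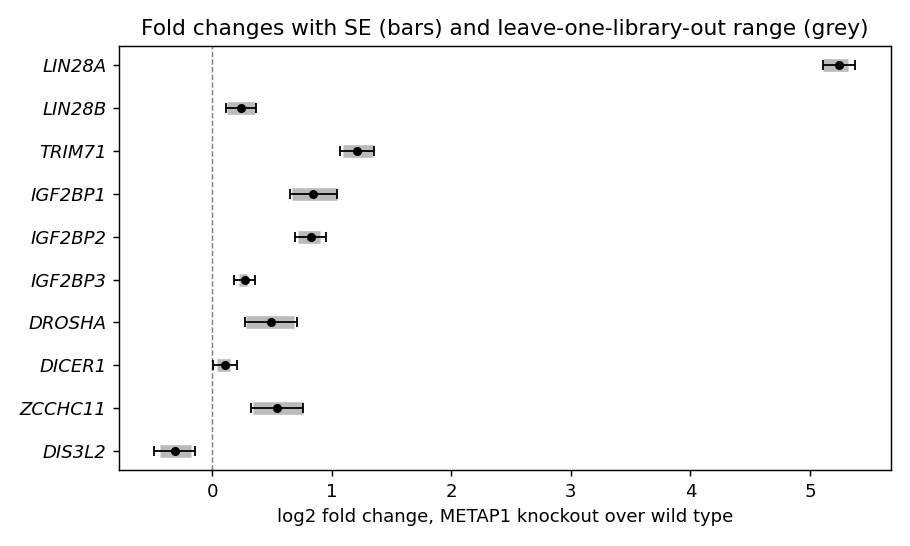
Log2 fold change of each gene, METAP1 knockout over wild type, as a point with a bar of 1 standard error from the edgeR fit; grey bands span the values with each library left out in turn and the dashed line marks 0. LIN28A at 5.25 stands apart from the other 9 genes, which lie between -0.32 and 1.21.

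The median log2 fold change of the 10 genes was 0.52, beside 0.01 over all tested genes. Of the 10, 9 had a positive log2 fold change, and in 8 both knockout libraries lay above all wild-type libraries, a pattern found for 30.1% of all tested genes; the groups did not overlap in either direction for 59.3% of them. At an adjusted p of 0.05 in the fit across all genes, 5 were called higher, beside 14.9% of all tested genes, and 0 were called lower: LIN28A, TRIM71, IGF2BP1, IGF2BP2 and IGF2BP3. Because the genes were chosen with these values known, nothing is read from the counts. The median of the 10 genes was 0.31 without wild-type replicate 2 and 0.32 with the trend with gene length removed. Wild-type replicate 2 was the lowest wild-type library for 7 of the 10 genes and for 37.6% of all tested genes, and the part of that library in these differences was not tested beyond leaving it out.

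Other known let-7 targets moved in both directions. Of 45 measured genes of a list of classical targets, 8 rose, 4 fell and 33 did not pass the test, and the median log2 fold change was 0.10, beside 0.01 over all tested genes. The share called, 26.7%, lay beside 29.7% of all tested genes, or 3150 genes, which became 4591 without wild-type replicate 1. The median was 0.04 with the trend with gene length removed, 0.06 without wild-type replicate 2 and 0.16 without wild-type replicate 3. The calls became 4 higher and 0 lower when knockout library 2 was left out, 7 and 0 for knockout library 3, 6 and 1 for wild-type replicate 3, and 14 and 7 for wild-type replicate 1.

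LRIG3, a leucine-rich repeat membrane protein gene, had 710 and 645 normalized counts in knockout cells, against 393, 314 and 346 in wild-type cells. It rose with a log2 fold change of 0.95 (SE 0.13; edgeR adjusted p = 0.00160). ARID3B, which encodes an AT-rich DNA-binding factor, had 1212 and 1650 normalized counts in knockout cells, against 766, 550 and 626 in wild-type cells, and rose by 1.15 on the log2 scale (SE 0.18; edgeR adjusted p = 0.00282). HIC2, a zinc finger transcription factor gene, had 1460 and 1481 in knockout cells, against 1013, 792 and 750 in wild-type cells, and rose by 0.79 (SE 0.14; edgeR adjusted p = 0.00392). In each of these genes the knockout libraries lay above all wild-type libraries, and the calls held with each library left out in turn.

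FIGN, a gene of the fidgetin ATPase, had 1226 and 1056 normalized counts in knockout cells, against 480, 248 and 435 in wild-type cells. Its log2 fold change was 1.56 (SE 0.25; edgeR adjusted p = 0.00361), and without knockout library 2 it was 1.45 and the call was lost. ARID3A, a relative of ARID3B, rose by 0.73 (SE 0.14; edgeR adjusted p = 0.00537) and lost its call without knockout library 2, at 0.61. IGF1R, the receptor of insulin-like growth factors, had 3627 and 3444 normalized counts in knockout cells, against 1840, 814 and 1237 in wild-type cells. It rose by 1.45 (SE 0.28; edgeR adjusted p = 0.00815), and the call was lost when wild-type replicate 3 (1.42) or either knockout library (1.41 without library 2, 1.49 without library 3) was left out.

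The other targets that rose were PBX3, a homeobox gene, at a log2 fold change of 0.70 and TGFBR3, a TGF-beta co-receptor gene, at 0.62. Those that fell were E2F2 at -0.57, GATM at -0.56, SLC5A6 at -0.33 and RRM2, a subunit of ribonucleotide reductase, at -0.33. Each of these 6 lost its call when knockout library 2 was left out, with values of 0.48 for PBX3, 0.42 for TGFBR3, -0.59 for E2F2, -0.58 for GATM, -0.30 for SLC5A6 and -0.36 for RRM2. Several well-known targets did not pass the test: NRAS had a log2 fold change of -0.23, CDC25A of -0.28, CDK6 of 0.34, MYC of 0.55 and HMGA2 of 0.10. HMGA2 had 1478 and 1530 normalized counts in knockout cells, against 1377, 1294 and 1533 in wild-type cells, and the groups overlapped.

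**Figure D4:**
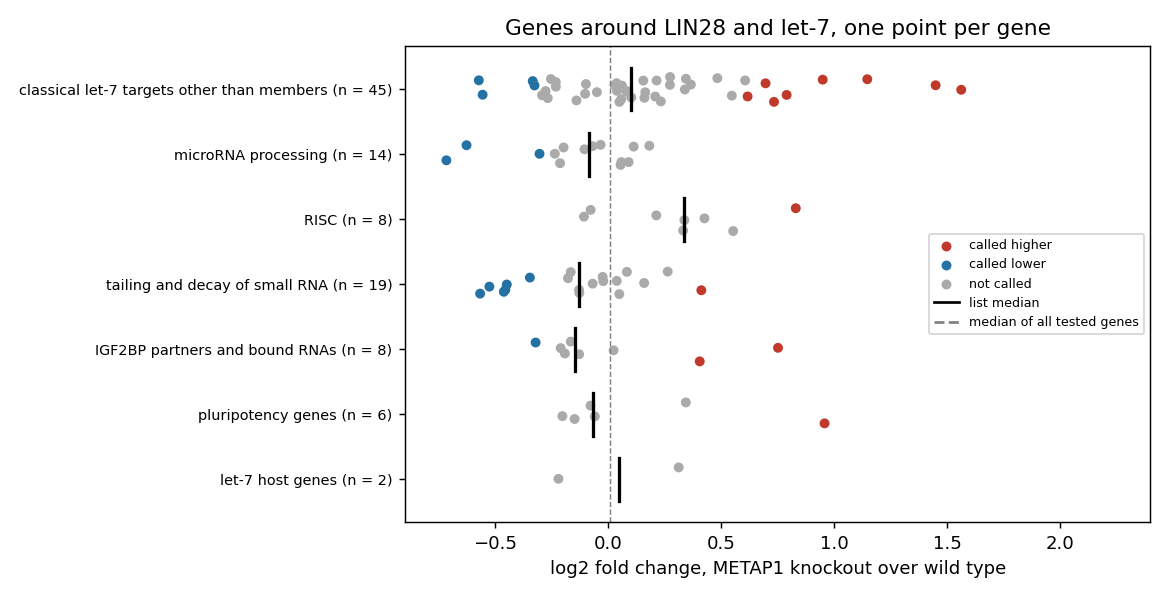
Log2 fold change, METAP1 knockout over wild type, of each measured gene in 7 gene lists around LIN28 and let-7, coloured by its call, with a bar at the list median and a dashed line at the median of all tested genes. Classical targets spread from -0.57 to 1.56, with 8 called higher and 4 called lower.

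Log2 fold changes were also read by the number of CTACCTCA matches in the 3′ untranslated region, over all tested genes with such a region annotated. The 9954 tested genes with no match had a median of 0.00, the 383 genes with 1 match 0.10, and the 14 genes with 2 or more 0.49. With the 10 genes named at the start left out, 391 genes had at least 1 match, with a median of 0.11. Of these, 19.2% were called higher and 9.46% lower, against 14.7% and 14.9% of genes with no match. With the same 10 genes left out, 12 genes had 2 or more matches, with a median of 0.40, of which 6 were called higher and 0 lower. Classical targets described above, such as FIGN, were not left out. Genes with matches also had longer 3′ untranslated regions, with a median of 2996 bases for 1 match and 1013 bases for none. The fit that removes the trend with whole gene length, which does not correct for the length of the untranslated region, gave medians of 0.04 for 1 match, -0.01 for none, and 0.26 for the 12 genes with 2 or more. An alternative added after the data were seen counted the most matches in the 3′ untranslated region of any coding transcript. With the same 10 genes left out, it gave a median of 0.43 over 14 genes with 2 or more. Of these, 7 were called higher and 0 lower.

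**Figure D5:**
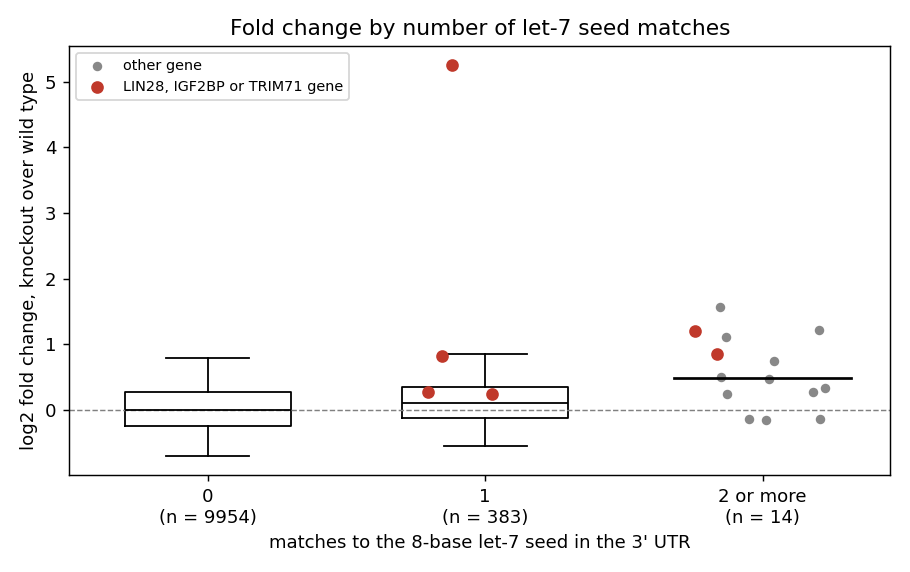
Log2 fold change, METAP1 knockout over wild type, of tested genes by their number of CTACCTCA matches in the 3′ untranslated region; boxes show quartiles with whiskers to the percentiles 5 and 95, points show single genes (in the class with 1 match only the LIN28 and IGF2BP genes), and the bar on the right is the median. Medians are 0.00 with no match, 0.10 with 1 match and 0.49 with 2 or more.

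Genes with 3 or more matches included TRIM71, FIGN, IGDCC3, IGF2BP1 and SMC1A. Of these, IGDCC3 and SMC1A were picked out after their values were seen. IGDCC3, an immunoglobulin-family membrane protein gene, had 860 and 635 normalized counts in knockout cells, against 359, 288 and 318 in wild-type cells, and rose by 1.22 (SE 0.16; edgeR adjusted p = 0.00123). SMC1A, a cohesin subunit gene, had 7050 and 7300 in knockout cells, against 9131, 6843 and 7932 in wild-type cells, with overlapping groups and a log2 fold change of -0.15 (SE 0.12; edgeR adjusted p = 0.384). With the length trend removed, SMC1A fell by 0.37 on the log2 scale (edgeR adjusted p = 0.010).

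Of 14 other measured microRNA processing genes, 0 rose, 3 fell and 11 did not pass the test, with a median log2 fold change of -0.09 that was -0.03 without wild-type replicate 1. The called share was 21.4%, beside 29.7% of all tested genes, of which 14.8% were called lower. RAN, the GTPase whose bound form carries precursors out of the nucleus with exportin-5, had 6133 and 6411 normalized counts in knockout cells, against 9150, 11106 and 10660 in wild-type cells, and fell by 0.72 (SE 0.11; edgeR adjusted p = 0.00221). HNRNPA1, a splicing factor that also binds let-7 precursors, fell by 0.63 (SE 0.10; edgeR adjusted p = 0.00339), and the call was lost without knockout library 2, at an adjusted p of 0.0562 from edgeR. SRRT, a cap-complex partner of the DROSHA complex, fell by 0.30 (SE 0.09; edgeR adjusted p = 0.0395), and its call was lost when wild-type replicate 3 (-0.30) or either knockout library (-0.34 without library 2, -0.27 without library 3) was left out. RAN and HNRNPA1 have processed pseudogenes, so that reads may be shared with them. DGCR8, the partner of DROSHA, and XPO5, the exporter, had log2 fold changes of 0.05 and -0.07 and did not pass the test.

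Of 8 measured genes of the silencing complex that carries mature microRNAs, AGO3 alone rose, 0 fell and 7 did not pass, with a median of 0.33. Called genes made up 12.5% of this list, beside 29.7% of all tested genes. The median was 0.05 with the trend with gene length removed, 0.15 without wild-type replicate 2 and 0.56 without wild-type replicate 1. AGO3 had 2377 and 1629 normalized counts in knockout cells, against 1389, 879 and 1116 in wild-type cells, and rose by 0.83 (SE 0.21; edgeR adjusted p = 0.0238). Its call was lost without wild-type replicate 3 (0.82) or knockout library 2 (0.53). AGO1, with 0.34 (edgeR adjusted p = 0.251), and TNRC6B, with 0.33 (edgeR adjusted p = 0.301), did not pass. Without wild-type replicate 1 both passed, each at 0.56, when 6 of the 8 genes were called. In that fit the calls over all tested genes also rose, from 3150 to 4591.

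Of 19 other measured genes of small RNA tailing and decay, 1 rose, 6 fell and 12 did not pass, with a median of -0.13. In this list 36.8% were called, beside 29.7% of all tested genes. The genes that fell were XRN2, a nuclear exonuclease, and 5 of 10 measured EXOSC subunits of the exosome, the complex that degrades RNA from its 3′ end, beside 14.8% of all tested genes. The other 5 EXOSC genes did not pass the test, and EXOSC7 had a log2 fold change of 0.26. EXOSC9 had 975 and 1047 normalized counts in knockout cells, against 1461, 1492 and 1542 in wild-type cells, and fell by 0.57 (SE 0.09; edgeR adjusted p = 0.00340) with each library left out in turn. EXOSC10 fell by 0.53 (edgeR adjusted p = 0.00400), with no call without knockout library 3 (-0.50). XRN2 at -0.46, EXOSC2 at -0.35 and PAPD4, another terminal nucleotidyltransferase gene (TENT2), at 0.41 lost their calls without wild-type replicate 3 or either knockout library. EXOSC8 at -0.46 (edgeR adjusted p = 0.0465) and EXOSC4 at -0.45 (edgeR adjusted p = 0.0496) lay close to the threshold. Each lost the call when any 1 library other than wild-type replicate 1 was left out. Both calls were also lost with the length trend removed and with limma-voom. ZCCHC6 (TUT7), the partner of ZCCHC11 in tailing, had a log2 fold change of 0.16 and did not pass.

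Of 8 measured IGF2BP partners and bound RNAs, 2 rose, 1 fell and 5 did not pass, with a median of -0.15. Calls covered 37.5% of these genes, beside 29.7% of all tested genes. PABPC1, the cytoplasmic poly(A)-binding protein gene, rose by 0.75 (SE 0.13; edgeR adjusted p = 0.00346) with each library left out in turn, and its reads may be shared with near-identical copies. STAU1, a double-stranded RNA-binding protein gene, rose by 0.40 (edgeR adjusted p = 0.0182) and DHX9, a helicase gene, fell by 0.32 (edgeR adjusted p = 0.0271), and both calls were lost without wild-type replicate 3 or either knockout library. ACTB, whose mRNA IGF2BP1 binds, had a log2 fold change of -0.19 and did not pass.

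Of 6 measured pluripotency genes, SOX2 alone rose, 0 fell and 5 did not pass. The median was -0.07 and changed sign when single libraries were left out, to 0.09 without knockout library 3, 0.01 without wild-type replicate 1 and 0.02 without wild-type replicate 2. SOX2, a transcription factor that cooperates with POU5F1 in stem cells, had 17181 and 13931 normalized counts in knockout cells, against 9934, 7294 and 6810 in wild-type cells. It rose by 0.96 (SE 0.17; edgeR adjusted p = 0.00624), with no call without knockout library 2 (0.80). POU5F1 had a log2 fold change of 0.34 (edgeR adjusted p = 0.150) and DPPA4 of -0.08 (edgeR adjusted p = 0.515), and neither passed. Over the 3 pluripotency markers that were measured, summed RPKM was 609 to 737 in knockout cells and 383 to 508 in wild-type cells. Over 5 mesenchymal markers it was 176 to 180 in knockout cells and 123 to 139 in wild-type cells, with 3 of 5 higher. Over 3 measured epithelial markers it was at least 38.8 in knockout cells and at most 20.9 in wild-type cells, with 2 of 3 higher. Over the neural markers NES and SOX2 it was 463 to 560 in knockout cells and 226 to 319 in wild-type cells, with both higher. Among all tested genes, 14.9% were called higher. The epithelial marker CDH1 and the neural markers PAX6, TUBB3 and NCAM1 were not analysed here. SOX2 entered both the pluripotency and the neural sums. Its RPKM was 489 and 397 in knockout libraries, against 283, 208 and 194 in wild-type libraries. The part of these markers in the LIN28A difference was not tested.

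Both measured let-7 host genes, HUWE1 for let-7f-2 and miR-98 and WDR82 for let-7g, did not pass the test. HUWE1 had a log2 fold change of 0.31 (edgeR adjusted p = 0.268) and WDR82 of -0.22 (edgeR adjusted p = 0.147). Their mRNA levels do not measure the mature microRNAs.

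None of the tested genes around LIN28A came near its fold change. Of 15 tested genes lying within 500 kb, 1 rose and 2 fell, with a median log2 fold change of -0.09, and the 12 that did not pass lay between -0.56 for PIGV and 0.58 for ARID1A. The nearest, DHDDS, which starts 21.5 kb away, had 0.39 (edgeR adjusted p = 0.0705), and UBXN11, on the other side of LIN28A, had -0.39 (edgeR adjusted p = 0.131). HMGN2, a nucleosome-binding protein gene that has processed pseudogenes and starts 61.7 kb away, fell by 0.86 (edgeR adjusted p = 0.000566). GPN2, at 480 kb, rose by 0.48 (edgeR adjusted p = 0.0102) and NUDC fell by 0.46 (edgeR adjusted p = 0.00698), and both calls were lost without either knockout library. The GPN2 call was also lost without wild-type replicate 3, at a log2 fold change of 0.46. Of 11 tested genes within 500 kb of TRIM71, 0 rose and 2 fell: CNOT10, a deadenylase complex gene, by 0.63 (edgeR adjusted p = 0.00279) and SUSD5 by 1.79 (edgeR adjusted p = 0.000169). The other 9 lay between -0.41 for FBXL2 and 0.70 for TMPPE, and the calls of HMGN2, CNOT10 and SUSD5 held with each library left out in turn.

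Across the 5 libraries, the genes whose pattern lay nearest to that of LIN28A were COL5A2, PI15, CCND1, APOE and COL11A1, at Euclidean distances of 0.712, 1.96, 2.05, 2.13 and 2.64 between centred log2 CPM values (counts scaled to library size). COL5A2, a collagen chain gene, had 7155 and 8042 normalized counts in knockout cells, against 258, 361 and 292 in wild-type cells, a log2 fold change of 4.64. The 5 libraries are the same ones that gave the LIN28A difference, so that nearness here is a description.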

How the data were processed

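RNA was sequenced from 2 METAP1 knockout and 3 wild-type HAP1 libraries with a stranded kit after ribosomal RNA depletion, per the labels' protocols. Per the submitters' processing notes, STAR 2.4.0i, HTSeq and DESeq2 were used with the builds GRCh37 and hg19; their settings, including strand, are not given in the sources used here, so reads of overlapping antisense genes may not be separated. The authors deposited whole-number read counts per gene, and log2 fold changes with standard errors from their own comparison, which are used only where named. The 5 deposited RPKM columns were not used; RPKM here was computed from the counts and the gene lengths of the table. The table lists genes with reads in every library, so genes near 0 are not analysed here. The knockout count columns are numbered 2 and 3 whereas the sample titles count from 1, so these columns were assigned to the group and not to a sample.

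Of 10626 genes, 6 were removed by edgeR's filterByExpr and 10620 were tested with edgeR 4.0.16 (R 4.3.3): TMM scaling, robust quasi-likelihood fit on knockout against wild type, 3 residual degrees of freedom, Benjamini-Hochberg adjustment over all tested genes and a threshold of 0.05. The same script was tested on simulated counts. Precision is set by the 5 libraries, whose common biological coefficient of variation was 11.7%. Normalized counts are counts divided by the effective library size and multiplied by its mean. The alternatives were median-of-ratios scaling, no TMM, no low-count filter, a minimum mean of 50 counts, DESeq2 1.42.0, limma-voom (limma 3.58.1), removal of the trend with gene length (lowess, span 0.3), a replicate block and each library left out.

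Gene positions and 3′ untranslated regions are from GENCODE 29 (GRCh38), matched by gene ID for 10521 genes, and microRNA sequences are from RefSeq (GRCh38.p14). The 10 genes and the other lists were chosen with earlier results of these data known. Described from each list were the called genes whose groups do not overlap, up to 6 with the smallest adjusted p, or the 2 most abundant genes as values where fewer than 2 were called. Tested genes within 500 kb of LIN28A and TRIM71 and the 5 genes nearest to LIN28A in pattern were added, and further genes are given as values or are said to be chosen after their values were seen. Some genes of these lists are not reported here.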

Additional observations from a re-analysis of the deposited data

How the results depend on the processing

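Of 130 alternative log2 fold changes of the 10 genes, 128 moved by less than the spread between replicates, and the other 2 were IGF2BP3 (0.11) and DICER1 (-0.14) with the length trend removed. The sign of DICER1 was thereby reversed, and the pluripotency median of -0.07 became positive under the replicate block (0.05) and without wild-type replicate 1, wild-type replicate 2 or knockout library 3. The call of IGF2BP3 is lost with median-of-ratios scaling, with the length trend removed and under the block. It is also lost when any 1 library other than wild-type replicate 1 is left out. The call of IGF2BP1 is lost without wild-type replicate 3 or either knockout library. Over the fits with each library left out, log2 fold changes were 0.22 to 0.29 for IGF2BP3 and 0.67 to 1.04 for IGF2BP1. DIS3L2 is called lower with the length trend removed. ZCCHC11 and DROSHA are called higher under the block and without wild-type replicate 1. Of 871 alternative values of the other named genes, 787 kept their side of the threshold, 63 lost their call and 21 gained one. The median of all genes was at most 0.0221, without TMM. With the length trend removed, 5 IGF2BP partners and 6 microRNA processing genes were called, in place of 3 and 3. Tailing and decay genes called lower were then 4 in place of 6, and were also 4 with limma-voom. With DESeq2, 2 genes of the silencing complex were called in place of 1. The cause of these changes was not tested.

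The replicate block, a fit with the column numbers as pairs and 1 residual degree of freedom, called 20 classical targets, 6 genes of the silencing complex, 2 pluripotency genes and 1 let-7 host gene, in place of 12, 1, 1 and 0, and 6 of the 10 genes in place of 5. This fit also called more genes over all tested genes than the 3150 of the main fit. Whether the calls in these lists rose more than those of all genes was not tested. The column numbers do not show pairing: same-numbered libraries correlated at 0.03 for number 2 and 0.00 for number 3 in their deviations from the group means.

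Leaving out each library in turn gave 1179 to 4591 calls over all genes, 615 to 2313 higher and 564 to 2278 lower, fewest without knockout library 2 and most without wild-type replicate 1. Over the same fits the 10 genes had 3 to 7 calls, classical targets 4 to 21, tailing and decay genes 1 to 7, microRNA processing genes 1 to 6, the silencing complex 0 to 6, IGF2BP partners 1 to 4, pluripotency genes 0 to 2 and host genes 0 to 2. With 1 knockout library left, that library is assumed to vary like the wild-type libraries. LIN28A rests on 85 to 143 reads in wild-type libraries.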

Other observations

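Among the other genes with 2 matches to the let-7 seed in the 3′ untranslated region, named here after their values were seen, GDAP2, MED28 and SOCS4 rose. GDAP2 had 1636 and 1399 normalized counts in knockout cells, against 998, 746 and 966 in wild-type cells, a log2 fold change of 0.75 (SE 0.14; edgeR adjusted p = 0.00623). MED28, a Mediator subunit gene, had 2723 and 2618 in knockout cells, against 2098, 1701 and 1825 in wild-type cells, a log2 fold change of 0.51 (SE 0.11; edgeR adjusted p = 0.0102). SOCS4, a suppressor of cytokine signalling gene, had 2479 and 2447 in knockout cells, against 1946, 1610 and 1796 in wild-type cells, a log2 fold change of 0.47 (SE 0.10; edgeR adjusted p = 0.0122). The remaining 5 genes with 2 matches, BACH1 (0.27), C14orf28 (-0.14), CBX5 (0.25), DDA1 (-0.13) and FZD3 (0.34), did not pass the test.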
